A study of Homo sapiens with 41 samples.

Results

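The data described here are the responses of A375R-only melanoma tumours to vemurafenib, given gene by gene. A375R is a vemurafenib-resistant derivative of the human melanoma line A375, which carries the mutant BRAF kinase that vemurafenib inhibits. The comparison takes the libraries that the sample titles mark as resistant cells only, 3 from tumours of mice given vemurafenib and 3 from tumours of mice given vehicle, 6 of the 41 samples of the series. All genes of their table were used, and 13755 of the 21593 listed genes had a mean of at least 10 normalised reads and were tested.

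The tumours grew from A375R cells injected under the skin of mice with matrigel, a basement membrane extract. Dosing began when tumours measured 50 to 150 mm3. The vemurafenib group received 75 mg/kg bid for 10 doses, reading the title mark of that group, vem10d, as a number of doses. The labels give 5 or 10 doses, and the mark could also mean 10 days. The control group received vehicle. Both groups carry an RPL10a tag according to their titles, a large-subunit ribosomal protein, and the RNA came from translating ribosome affinity purification (TRAP), in which beads coated with a GFP antibody pull down tagged ribosomes with the mRNA on them. The method thus aims at ribosome-associated RNA of the tagged cells rather than that of the whole tumour. How much other RNA came through was not measured. The tumours rest on 1 resistant line. Strain, sex and age of the mice are not in the labels, nor how many mice each library stands for. In the other libraries of the same table the A375R cells had been mixed with drug-sensitive A375 cells (3 vemurafenib and 3 vehicle libraries), and a separate table holds A375 tumours (4 vemurafenib and 4 vehicle libraries). Both are used only to set the A375R-only response against.

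Mutant BRAF drives the kinases MEK and ERK without a growth factor signal. ERK in turn induces its own brakes, the DUSP phosphatases and Sprouty proteins, and the transcription factors and cyclins that carry cells into the cycle. In sensitive melanoma cells vemurafenib shuts this output down and division stops, whereas resistant cells often keep ERK signalling under the drug by various routes. The comparison asks how resistant cells respond to the drug itself when no sensitive cells share the tumour.

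The 6 libraries held 26884205 to 42843612 recovered reads, with 16440 to 16844 genes detected in each. Vemurafenib replicate 1 stood farthest from its group, with a chi-square per degree of freedom of 37.1 and 43.6 against the other vemurafenib libraries, where the other pairs within A375R-only groups had 11.2 to 19.6. Melanoma lineage markers were partly present. MITF, the master regulator of pigment cells, had 346, 261 and 454 in vemurafenib tumours, against 269.6, 686 and 419 in vehicle tumours. SOX10, a neural crest factor, had 349, 123 and 69.4 in vemurafenib tumours, against 129, 55.8 and 118 in vehicle tumours. MLANA, a melanosome protein, had 0 to 2.38 reads in all 6 libraries, and TYR and DCT, enzymes of melanin synthesis, were at 0 in all 6. Defining markers of host cells were low in the human gene table. The host is a mouse and the handling of mouse reads is not given, so these values do not measure host RNA. PTPRC, carried by all leukocytes, and CDH5, of endothelium, had 0 to 2.81 and 0 to 2.38 reads, and TYROBP was at 0. HBB, of red blood cells, had 90.3, 0 and 2.39 in vemurafenib tumours, against 0, 1.64 and 7.15 in vehicle tumours.

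Under the drug 109 genes passed the threshold in the resistant tumours, by 1 of several possible fits. At a Benjamini-Hochberg adjusted p under 0.05 in a limma model over all 12 libraries of the table, 42 genes were higher (0.305% of those tested) and 67 were lower (0.487%). Of these, 8 rose and 17 fell by at least 2-fold, and the smallest change called was 0.45 on the log2 scale. In every one of the 109 genes all 3 libraries of one group lay above all 3 of the other. Over all genes, such a separation was seen upwards in 13.1% and downwards in 12.7%, and an unadjusted p under 0.05 in 18.4%. The typical SE of a log2 change was 0.14. In A375 tumours, given the same drug, 34.2% of the 14069 genes tested were higher and 34% lower, with a typical SE of 0.11. The titles of the A375 tumour libraries do not mark a number of doses, so it may differ. Those tumours come from another table, normalised separately, so the percentages stand side by side without a test. Under total-count scaling 30.1% of the A375 calls were higher, against 50.1% as reported. The calls in A375R-only tumours depend on the fit and on each library. There were 98 with edgeR, 736 with DESeq2, 530 in a limma fit of the 6 libraries alone and 14 with no filter on low values. Leaving out 1 of the 6 left 1 to 33 calls, except that 326 were made without vemurafenib replicate 3, while in none of these fits did a called gene turn its sign. With libraries scaled to equal totals, an alternative chosen after seeing the data, 1227 genes were called and 92.7% of them were higher, against 38.5% of the 109, and the median of all genes moved to 0.19 (log2).

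**Figure D1:**
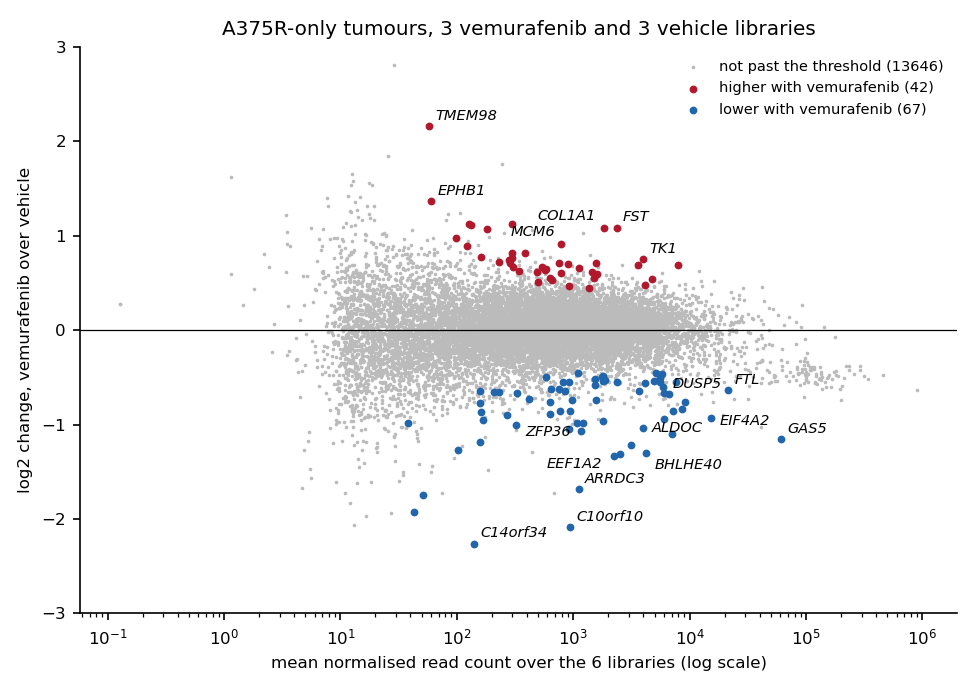
Each point is 1 of the 13755 genes tested in A375R-only tumours, at its mean normalised read count over the 6 libraries (log axis) and its log2 change, vemurafenib over vehicle. Red points are the 42 genes higher and blue points the 67 genes lower at adjusted p under 0.05, and most of them lie between 0.45 and 1.5 log2 units from 0.

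Of 24 tested MAPK output genes, which fall when BRAF is blocked in sensitive cells, 3 fell in the resistant tumours, a larger share than the 0.487% of all genes, and none rose. At an unadjusted p under 0.05, 8 were lower, and in 6 every vemurafenib library was below every vehicle library, a separation seen in 12.7% of all genes. The median log2 change was -0.12, against 0.01 over all genes tested. In A375 tumours 21 of the same 24 fell and 1 rose, with a median of -1.30. The A375R-only median turned to 0.06 under total-count scaling, with 1 output higher and 2 lower.

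DUSP6, the cytoplasmic ERK phosphatase and a standard readout of the pathway, had 2857, 4104 and 3352 in vemurafenib tumours, against 5096, 4080.1 and 4287 in vehicle tumours. The groups overlapped, with vemurafenib replicate 2 above vehicle replicate 2, and the log2 change of -0.39 ± 0.14 (SE, n = 3 each, as for all changes here) did not pass (limma adjusted p = 0.149). In A375 tumours DUSP6 changed by -2.20 ± 0.08. DUSP4, its nuclear relative, had 8617, 9777 and 9069.5 in vemurafenib tumours, against 8484, 8238 and 8754 in vehicle tumours. These groups overlapped, and its change of 0.11 ± 0.10 did not pass (limma adjusted p = 0.607), where A375 tumours showed -0.90 ± 0.07. Among the transcription factors of the list, ETV4, ETV5 and FOSL1 had small positive log2 changes of 0.17 ± 0.13, 0.17 ± 0.10 and 0.18 ± 0.14, none past the threshold. The same genes changed by -3.17 ± 0.22, -1.31 ± 0.14 and -1.93 ± 0.11 in A375 tumours. EGR1 and MYC, also in the list, had negative changes without passing. CCND1, the cyclin that ERK induces, had 18587, 16903 and 13497 in vemurafenib tumours, against 15399, 14835 and 13505 in vehicle tumours, and MYC had 842, 1373 and 1104 in vemurafenib tumours, against 1051, 1208 and 1124 in vehicle tumours. Neither separated the groups (limma adjusted p = 0.688 for CCND1 and 0.898 for MYC).

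The 3 outputs that fell were SPRY1, DUSP5 and IER3, whose calls were lost in 8, 9 and 8 of 17 alternative fits. SPRY1 and DUSP5 were not called in edgeR. SPRY1, a Sprouty inhibitor of receptor signalling, had 119.7, 99.0 and 134 in vemurafenib tumours, against 207, 177 and 218 in vehicle tumours. Each vemurafenib library lay below each vehicle library, a change of -0.77 ± 0.17 (limma adjusted p = 0.0483), against -3.02 ± 0.20 in A375 tumours. DUSP5, an inducible nuclear ERK phosphatase, had 5075, 4908 and 4168 in vemurafenib tumours, against 6979, 7638 and 7703 in vehicle tumours, a change of -0.66 ± 0.15 (limma adjusted p = 0.0495), and IER3, an early response gene that ERK induces, had 3909, 4397 and 3816 in vemurafenib tumours, against 5833, 6033 and 5689 in vehicle tumours, a change of -0.54 ± 0.12 (limma adjusted p = 0.0471). Other Sprouty genes had lower values without passing. SPRY2 had 1327, 1669 and 1282 in vemurafenib tumours, against 1711, 2194 and 2372 in vehicle tumours, a change of -0.55 ± 0.14 (limma adjusted p = 0.075), with the groups separated, and SPRY4 changed by -0.39 ± 0.13 (limma adjusted p = 0.122), with vemurafenib replicate 2 inside the vehicle range. In the same tumours RGS2, a regulator of G protein signalling, fell by a log2 change of -0.98 ± 0.16 (limma adjusted p = 0.0196), and DUSP2, a nuclear phosphatase of ERK and p38, fell to 185, 220.4 and 229.6 in vemurafenib tumours, against 508, 475 and 315 in vehicle tumours (limma adjusted p = 0.0365). None of the 18 RAS, RAF, MEK and ERK kinase genes passed in limma, edgeR or DESeq2, with unadjusted p under 0.05 for 3 upwards and 2 downwards in limma. BRAF itself had 689.5, 724 and 824 in vemurafenib tumours, against 884, 913 and 892 in vehicle tumours, a change of -0.27 ± 0.11 (limma adjusted p = 0.194).

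**Figure D2:**
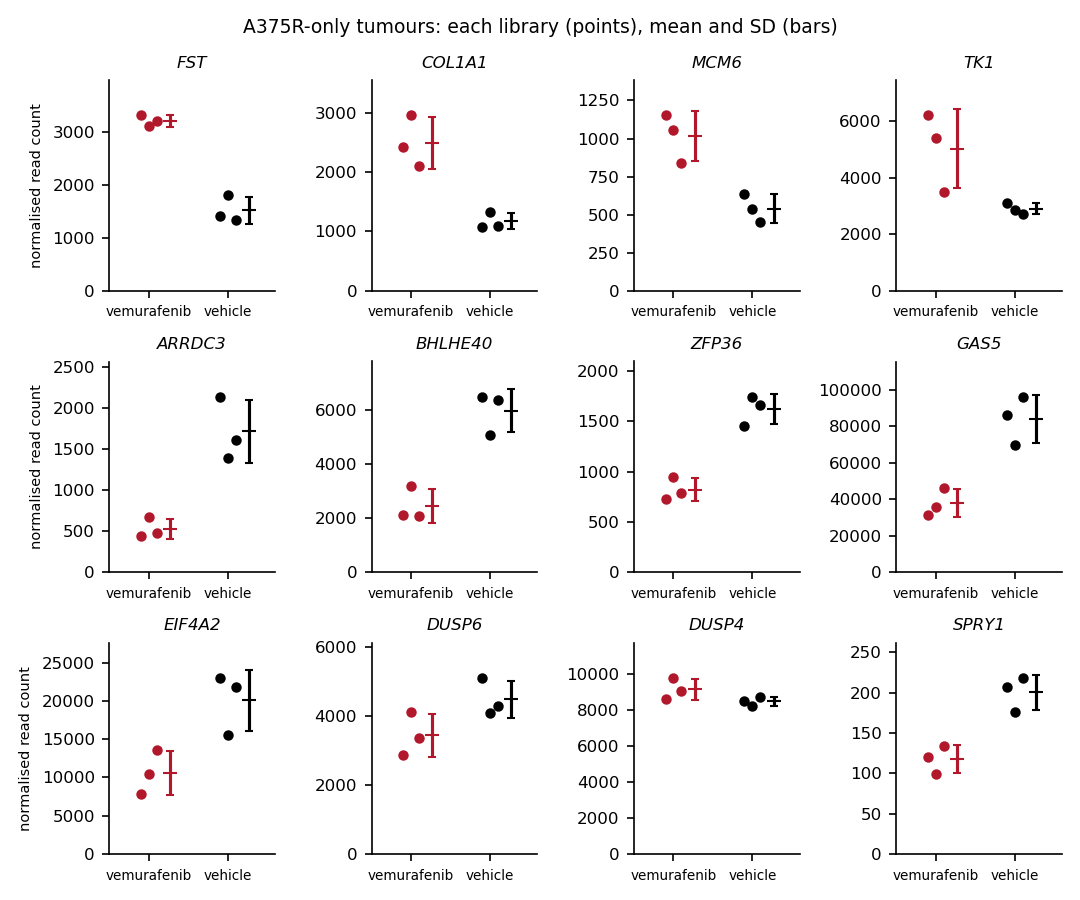
Normalised read counts of 12 genes in each A375R-only library, vemurafenib (red) left and vehicle (black) right, with the mean and SD of each group beside the points. FST, COL1A1, MCM6 and TK1 are higher in all 3 vemurafenib libraries, ARRDC3, BHLHE40, ZFP36, GAS5, EIF4A2 and SPRY1 are lower in all 3, and the groups of DUSP6 and DUSP4 overlap.

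Genes of DNA replication had higher values under the drug and lower ones in the A375 response. All 29 tested members of the replication list had log2 changes above 0, with a median of 0.48. In 25 of them every vemurafenib library was above every vehicle library, a separation seen in 13.1% of all genes, and 6 passed the threshold with none lower. In A375 tumours 28 of the 29 fell and 1 rose, with a median of -1.36. The 28 mitosis genes all had changes above 0 (median 0.33), and 7 of them separated the groups upwards, against 25 of the 29 replication genes. None passed in limma or edgeR, 8 passed in DESeq2, and 16 had an unadjusted p under 0.05 in limma. All 28 fell in A375 tumours (median -1.48).

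MCM6, a subunit of the replicative helicase, had 1154, 1059 and 838 in vemurafenib tumours, against 635, 537 and 449 in vehicle tumours, a change of 0.91 ± 0.15 (limma adjusted p = 0.0196). MCM5 had 2238, 2173 and 1478 in vemurafenib tumours, against 1238, 1168 and 1121 in vehicle tumours, a change of 0.72 ± 0.14 (limma adjusted p = 0.036), and MCM3 changed by 0.61 ± 0.14 (limma adjusted p = 0.0483). All vemurafenib libraries were above all vehicle libraries for the 3 helicase genes, with vemurafenib replicate 3 the lowest of its group in each. TK1, which makes thymidine nucleotides for replication, had 6200.3, 5388 and 3481 in vemurafenib tumours, against 3111, 2871 and 2716 in vehicle tumours, a change of 0.75 ± 0.16 (limma adjusted p = 0.0471). GINS4, a partner of the helicase, changed by 0.66 ± 0.15 (limma adjusted p = 0.0495). Vemurafenib replicate 3 was again the lowest of its group for TK1 and GINS4, and still above every vehicle library.

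Among the cell cycle regulators E2F2, a factor that switches on replication genes, had 141, 119 and 133 in vemurafenib tumours, against 57.1, 73.1 and 69.1 in vehicle tumours, a change of 0.97 ± 0.20 (limma adjusted p = 0.0365), the 1 member of 17 G1 cyclin and CDK inhibitor genes to pass. E2F8, a repressor of the same family, also rose, by 0.78 ± 0.17 (limma adjusted p = 0.0483). CCNE2, the cyclin of the G1 to S step, had 376, 290.4 and 316 in vemurafenib tumours, against 196, 238 and 206 in vehicle tumours. It separated the groups but did not pass, with a change of 0.61 ± 0.14 (limma adjusted p = 0.0542). The inhibitors CDKN1A and CDKN1B changed by -0.52 ± 0.18 and -0.42 ± 0.14, also without passing (limma adjusted p = 0.133 and 0.118). MKI67, the proliferation marker, had 1329.6, 1334 and 1022 in vemurafenib tumours, against 875, 831 and 819 in vehicle tumours. Its groups were separated, and its change of 0.54 ± 0.17 did not pass (limma adjusted p = 0.108), where A375 tumours showed -1.33 ± 0.14. Further genes of division that rose were SPC25, a kinetochore protein (0.72 ± 0.14), CENPM, a centromere protein (0.66 ± 0.13), WDR62, a spindle pole protein (0.77 ± 0.16), TROAP (0.55 ± 0.12), DTYMK, the thymidylate kinase (0.69 ± 0.15), and MSH6, of mismatch repair (0.47 ± 0.10), with limma adjusted p from 0.0282 to 0.0483. All 29 replication genes stayed above 0 in every fit tried, except 1 gene without vehicle replicate 2. How many passed depended on the libraries. It was 0 or 1 without any one of the other 5 libraries, 12 without vemurafenib replicate 3, and 23 under total-count scaling.

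The promoters of these genes are shown because they rose together and E2F factors are the known regulators of replication genes. The window of 250 bases before to 50 after the RefSeq start (GRCh38.p14) was searched on both strands for the E2F-type letters TTNGCGC, a motif chosen after the values were seen. Windows were found for 25 of the 29 replication genes, and 14 of them (56%) held it, against 12.8% of the windows of all genes tested and 10.5% of all protein-coding windows. Of the 42 genes called higher, 31 had a window, and 4 of these (12.9%) held it. The sequences run from 100 bases before to 10 after the start, with the motif in capitals where it falls in this stretch, overlapping copies on the 2 strands run together. They lie at chr2:135876434-135876543 (minus strand) for MCM6, chr6:52284733-52284842 (minus strand) for MCM3 and chr1:23531224-23531333 (minus strand) for E2F2.
MCM6: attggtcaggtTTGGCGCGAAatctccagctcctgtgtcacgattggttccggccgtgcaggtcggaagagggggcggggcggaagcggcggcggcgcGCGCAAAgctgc
MCM3: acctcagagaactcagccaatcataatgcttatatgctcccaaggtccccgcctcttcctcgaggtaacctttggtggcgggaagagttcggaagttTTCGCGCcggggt
E2F2: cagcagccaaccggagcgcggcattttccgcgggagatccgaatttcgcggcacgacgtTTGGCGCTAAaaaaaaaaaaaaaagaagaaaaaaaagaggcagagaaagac
MCM6 and E2F2 each hold a pair of overlapping copies, one on each strand, and MCM6 and MCM3 each hold a copy that reaches the start. A match describes these letters only. The replication list was chosen by function, so its share of matches does not depend on the drug response. A part of E2F factors in the rise was not tested.

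**Figure D3:**
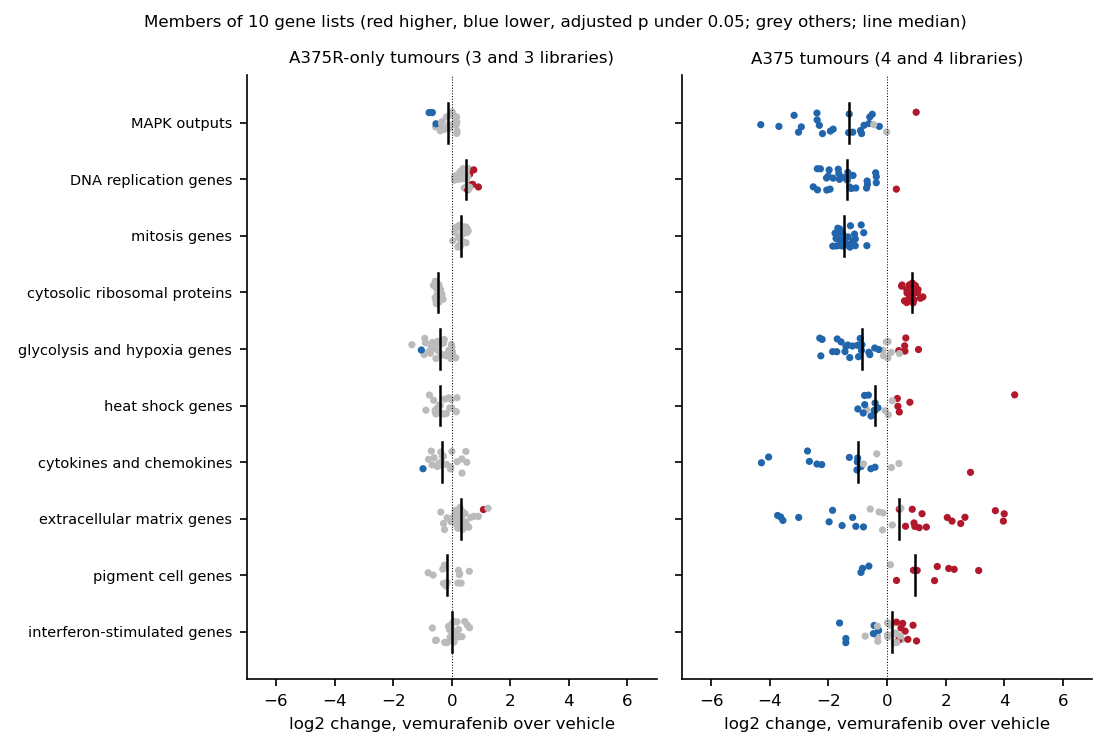
Log2 changes, vemurafenib over vehicle, of the members of 10 gene lists in A375R-only tumours (left) and A375 tumours (right); red points are higher and blue points lower at adjusted p under 0.05, grey points did not pass, and the black line is the list median. The replication and mitosis lists lie above 0 in A375R-only tumours and below 0 in A375 tumours, the ribosomal protein list the other way round, and the MAPK outputs lie around 0 in A375R-only tumours and below it in A375 tumours.

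Several genes that fell under the drug act in mRNA decay or in early responses to stress, a grouping made after the values were seen. ZFP36, which binds AU-rich elements and triggers the decay of cytokine mRNAs, had 726, 948 and 792 in vemurafenib tumours, against 1457, 1746 and 1667 in vehicle tumours. All vemurafenib libraries were below all vehicle libraries, a change of -0.99 ± 0.16 (limma adjusted p = 0.0196). BTG2, an antiproliferative p53 target that recruits the deadenylase complex, had 701, 709.7 and 856 in vemurafenib tumours, against 1439.9, 1639 and 1672 in vehicle tumours, a change of -1.07 ± 0.17 (limma adjusted p = 0.0196). Its relative BTG1 fell by a log2 change of -0.68 ± 0.12 (limma adjusted p = 0.0282). ZC3H12A, an endonuclease that cuts inflammatory mRNAs, had 158, 164 and 160.2 in vemurafenib tumours, against 251, 288 and 226 in vehicle tumours, a change of -0.66 ± 0.14 (limma adjusted p = 0.0374). In A375 tumours ZFP36, BTG2 and BTG1 changed upwards, by 1.09 ± 0.21, 0.96 ± 0.13 and 1.59 ± 0.08. PPP1R15A, which restores translation after stress by directing the dephosphorylation of the initiation factor eIF2 alpha, had 4950.2, 5276 and 5137 in vemurafenib tumours, against 9437, 8781 and 9529 in vehicle tumours, a change of -0.85 ± 0.13 (limma adjusted p = 0.0191). It was 1 of 24 ATF4 and unfolded protein response genes to pass. RHOB, a small GTPase induced by stress and growth factors, had 1891, 1766 and 1942 in vemurafenib tumours, against 4995, 4229.5 and 3848 in vehicle tumours, a change of -1.22 ± 0.27 (limma adjusted p = 0.0483).

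FOS, the classic immediate-early partner of AP-1, had 206, 401 and 267 in vemurafenib tumours, against 1883, 627 and 683 in vehicle tumours. All 3 vemurafenib libraries were below all 3 vehicle libraries, vehicle replicate 1 was far above its fellows, and the change of -1.73 ± 0.40 did not pass (limma adjusted p = 0.0526). EGR1 had 1131, 2289.9 and 1913 in vemurafenib tumours, against 2904, 2411 and 1959 in vehicle tumours, with overlapping groups and a change of -0.49 ± 0.23 (limma adjusted p = 0.263). JUND changed by -0.78 ± 0.22 (limma adjusted p = 0.092), with overlapping groups. None of the 10 AP-1 family members tested passed in limma or edgeR (1 lower in DESeq2, 3 lower at an unadjusted p under 0.05), and their median was -0.22. JDP2, an AP-1 repressor outside that list, rose, with 242, 147 and 158 in vemurafenib tumours, against 60.4, 111 and 79.8 in vehicle tumours, a change of 1.12 ± 0.23 (limma adjusted p = 0.0377).

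Several of the large falls were in genes of metabolic and stress control, a grouping also made after the values were seen. ARRDC3, an arrestin-like protein that FOXO factors induce and that limits glucose uptake and receptor signalling, had 447, 672 and 478 in vemurafenib tumours, against 2136, 1389 and 1612 in vehicle tumours. The groups stood well apart, a change of -1.68 ± 0.24 (limma adjusted p = 0.0191), and it was the 1 of 26 FOXO and PI3K-responsive genes to pass. C10orf10, known elsewhere as DEPP1 and also induced by FOXO factors, had 264, 511 and 281 in vemurafenib tumours, against 2076, 865 and 1626 in vehicle tumours, a change of -2.09 ± 0.39 (limma adjusted p = 0.0282). Other members of the FOXO list did not pass: KLF2 had 638, 726 and 568 in vemurafenib tumours, against 1744, 1270.2 and 946 in vehicle tumours, and IRS1, the insulin receptor substrate, had 551, 609 and 559.6 in vemurafenib tumours, against 359, 425 and 378 in vehicle tumours, a change of 0.57 ± 0.13 (limma adjusted p = 0.0526). BHLHE40, a transcriptional repressor induced by hypoxia and growth signals, had 2113, 3185 and 2099.7 in vemurafenib tumours, against 6491, 5074 and 6368 in vehicle tumours, a change of -1.30 ± 0.23 (limma adjusted p = 0.0253). MYLIP, a ubiquitin ligase for the LDL receptor, had 78.8, 85.0 and 128 in vemurafenib tumours, against 173, 246 and 239.5 in vehicle tumours, a change of -1.18 ± 0.22 (limma adjusted p = 0.0282). SAT1, of polyamine breakdown, fell by a log2 change of -0.74 ± 0.12 (limma adjusted p = 0.0196), and RRAGD, a GTPase that brings mTORC1 to the lysosome, by -0.86 ± 0.16 (limma adjusted p = 0.0282). C14orf34, which the files list with no description, had 32.4, 29.0 and 99.2 in vemurafenib tumours, against 220.4, 172 and 288 in vehicle tumours, a change of -2.26 ± 0.41 (limma adjusted p = 0.0282). FAM180A had 45.6, 51.4 and 84.9 in vemurafenib tumours, against 139.8, 145 and 142 in vehicle tumours (-1.27 ± 0.25) and ZNF560, a zinc finger protein, 11.6, 22.4 and 43.0 in vemurafenib tumours, against 72.7, 73.9 and 87.0 in vehicle tumours (-1.74 ± 0.37), with limma adjusted p = 0.036 and 0.0464. NRN1, the neurite growth protein neuritin, had 1235, 1664 and 1354 in vemurafenib tumours, against 3849.7, 2462 and 4526 in vehicle tumours, a change of -1.31 ± 0.27 (limma adjusted p = 0.036). In each gene of this group that fell, the vemurafenib libraries lay below the vehicle libraries.

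Of 33 glycolysis and hypoxia genes 27 had changes below 0, with a median of -0.39, against 6620 of all 13755 genes and a median of 0.01. Total-count scaling moved the median of all genes to 0.19, so these medians depend on the scaling. Lower calls took in 0.487% of all genes, and 1 of the 33 passed. That was ALDOC, an isoform of the glycolytic aldolase, with 2373, 2982 and 2454 in vemurafenib tumours, against 6184, 4201 and 5783 in vehicle tumours, a change of -1.04 ± 0.19 (limma adjusted p = 0.0282). SLC2A3, a glucose transporter, had 814, 1425 and 1138 in vemurafenib tumours, against 2569, 1705 and 2135 in vehicle tumours and separated the groups without passing (-0.94 ± 0.24, limma adjusted p = 0.0661). Of 19 heat shock genes 17 had changes below 0 (median -0.39). None passed in limma or edgeR, 3 were lower in DESeq2, and 11 were lower at an unadjusted p under 0.05, against 1261 of all 13755 genes. In A375 tumours 21 of the 33 glycolysis and hypoxia genes fell and 5 rose, and 10 of the 19 heat shock genes fell and 5 rose. DNAJB1, a co-chaperone of HSP70, had 8806, 11925 and 14931 in vemurafenib tumours, against 18444, 23245 and 17853 in vehicle tumours, a change of -0.76 ± 0.21 (limma adjusted p = 0.0801).

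A further feature concerned the translation machinery. The 77 listed genes for cytosolic ribosomal proteins, found by name, are a set added to the chosen lists. They made up 22.0%, 22.1% and 24.3% of the summed values of the vemurafenib libraries, against 27.4%, 26.9% and 29.0% of the vehicle libraries. The means were 22.8 ± 1.28% and 27.7 ± 1.11% (SD, n = 3 each), a difference of -4.94 percentage points, with no overlap between the groups. As the groups did not overlap, an exact two-sided permutation test could only give p = 0.1, the smallest that 3 against 3 allows. It adds nothing to that separation. In mixed tumours the shares were 25.5%, 25.7% and 26.9% with vemurafenib, against 19.8%, 25.6% and 23.2% with vehicle, a difference of 3.14 points (exact permutation p = 0.2). The summed normalised values of a library ran from 31744631 to 32422215 with vemurafenib, against 35179114 to 37168185 with vehicle, and ribosomal protein genes account for 64.9% of that difference. It is this gap that total-count scaling removes.

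Gene by gene, 75 of 76 tested ribosomal protein genes had log2 changes below 0, and in 75 every vemurafenib library was below every vehicle library, a separation seen in 12.7% of all genes. None passed the adjusted threshold in limma or edgeR, 70 had an unadjusted p under 0.05, and the median was -0.47. RPS26 was the 1 gene above 0. RPL10A, the protein that bears the tag, had 41024, 43007 and 48466 in vemurafenib tumours, against 63594, 60696 and 67938 in vehicle tumours, a change of -0.54 ± 0.17 (limma adjusted p = 0.118), in the same direction as the family. Whether reads of the tagged copy count in this value is not given. RPSA had 89315, 93872 and 106160.0 in vemurafenib tumours, against 144524, 133158 and 148352 in vehicle tumours, a change of -0.56 ± 0.16 (limma adjusted p = 0.0874). The number of ribosomal protein genes called lower rests on how the spread is estimated, with 54 by DESeq2 and 56 in a fit of the 6 libraries alone. The size of their change rests on the scaling, since quantile normalisation left 56 below, 19 above and 1 at 0 (median -0.07), and total-count scaling 75 below 0 with 7 called lower (median -0.29). The family has many near-identical pseudogene copies, so values of single members are uncertain. In A375 tumours 71 of 75 tested rose and 3 fell, with a median of 0.84 (31 and 6, median 0.08, under quantile normalisation).

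Some other genes that fell act in translation, a grouping made after the values were seen. EIF4A2, an RNA helicase that unwinds mRNA leaders, had 7859, 10423 and 13612 in vemurafenib tumours, against 22971, 15532 and 21801 in vehicle tumours, a change of -0.93 ± 0.21 (limma adjusted p = 0.0495). Its call was lost in 10 of 17 alternative fits, among them edgeR and quantile and TMM normalisation. EEF1A2, the elongation factor isoform of muscle and neurons, had 1127, 1254 and 1269.8 in vemurafenib tumours, against 3984, 1876 and 3836 in vehicle tumours, a change of -1.33 ± 0.27 (limma adjusted p = 0.036), with vehicle replicate 2 nearest to the drug group. Reads of EEF1A2 and its close paralog EEF1A1 may be split, so this value is uncertain. EEF1A1 changed by -0.64 ± 0.23 (limma adjusted p = 0.149). DPH5, of diphthamide synthesis on elongation factor 2, fell by a log2 change of -0.52 ± 0.11 (limma adjusted p = 0.0366). Outside that group FTL, the light chain of the iron store ferritin, had 14448, 16059.9 and 20159.7 in vemurafenib tumours, against 26879.9, 26553 and 24656 in vehicle tumours, a change of -0.64 ± 0.14 (limma adjusted p = 0.0483).

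GAS5, a noncoding RNA that serves mainly to carry small nucleolar RNAs (snoRNAs) in its introns, had 31543, 35944 and 46415 in vemurafenib tumours, against 86100.4, 69692 and 96245 in vehicle tumours. The drug group lay wholly below, a change of -1.15 ± 0.22 (limma adjusted p = 0.0282). Of 13 tested GAS5 and SNHG host genes, 1 passed, 11 were below 0, and 9 separated the groups downwards (12.7% of all genes did), with a median of -0.44. C6orf48, another host, had 6074, 6281 and 8277 in vemurafenib tumours, against 11649.9, 10179 and 12881 in vehicle tumours, a change of -0.76 ± 0.16 (limma adjusted p = 0.0418). TAF1D, a subunit of the RNA polymerase I factor SL1 that also hosts snoRNAs, had 4922, 6491 and 7193 in vemurafenib tumours, against 11857, 9657 and 11475 in vehicle tumours, a change of -0.84 ± 0.18 (limma adjusted p = 0.0423). By gene span in RefSeq, 470 tested genes contain a snoRNA, and 8 of them fell (1.70%, against 0.487% of all genes): C6orf48, CCNB1IP1, EIF4A2, GAS5, IPO7, METTL12, RABGGTB and TAF1D. Over the 470 the median log2 change was 0.006, near that of all genes. Without ribosomal protein genes, the remaining 441 had a median of 0.03, and 14.7% separated the groups downwards, against 12.7% of all genes. MALAT1, a nuclear long noncoding RNA, fell as well, with 3169.7, 4099 and 5295 in vemurafenib tumours, against 7632, 9006 and 7053 in vehicle tumours, a change of -0.94 ± 0.19 (limma adjusted p = 0.0374). It belongs to a list of long noncoding RNAs drawn up as a measure of library quality. Of that list 2 of 6 tested (GAS5 and MALAT1) fell and 4 separated the groups downwards, with a median of -0.75. The list summed to 59622 to 99239.5 in vemurafenib tumours, against 144722 to 168558 in vehicle tumours, most of it GAS5 and NEAT1, a scaffold of nuclear paraspeckles. NEAT1 had 18210.3, 27275 and 38942 in vemurafenib tumours, against 53348, 56829.5 and 54179 in vehicle tumours. As shares of the library the sums were 0.184%, 0.235% and 0.309% in vemurafenib tumours, against 0.428%, 0.411% and 0.454% in vehicle tumours. This quality measure thus differed between the groups without overlap. These levels moved in the same direction as those of the ribosomal protein genes. GAS5 counts both in this list and among the snoRNA hosts, so the falls of these groups overlap. The part of RNA off ribosomes in the libraries was not tested. A difference between the libraries in such RNA and a response to the drug cannot be told apart here.

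The first bases of these transcripts are shown because ribosomal protein and elongation factor mRNAs are known to begin with a run of pyrimidines, the 5′ terminal oligopyrimidine tract, through which mTORC1 controls their translation. A tract was taken as a C followed by at least 4 pyrimidines, beginning within 5 bases of the RefSeq start, a definition chosen after the values were seen. Each sequence runs from 10 bases before to 20 after the start (GRCh38.p14), with the tract in capitals.
RPS6: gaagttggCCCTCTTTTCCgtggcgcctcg
RPSA: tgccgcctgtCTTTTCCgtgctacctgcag
EEF1A1: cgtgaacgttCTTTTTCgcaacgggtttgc
TPT1: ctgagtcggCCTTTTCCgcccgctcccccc
EIF4A2: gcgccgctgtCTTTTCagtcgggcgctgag
TAF1D: aatagccaaCCCTTTTCTTCCgcacggttg
C6orf48: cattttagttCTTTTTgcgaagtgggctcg
ARRDC3: ttagccgcccgtctttgtaaggagaccact
ZFP36: tgccagcctcagcctgacttcagcgctccc
RPS6 and RPSA are ribosomal proteins, EEF1A1 the elongation factor and TPT1 a translation-associated protein. Of the genes with a tract shown, EIF4A2, TAF1D and C6orf48 were called lower, while RPS6, RPSA, EEF1A1 and TPT1 did not pass. ARRDC3 and ZFP36, both called lower, are shown as genes with no tract. The stretches lie at chr9:19380217-19380246 (minus strand), chr3:39406710-39406739 (plus strand), chr6:73521013-73521042 (minus strand), chr13:45341164-45341193 (minus strand), chr3:186783567-186783596 (plus strand), chr11:93741476-93741505 (minus strand), chr6:31834906-31834935 (plus strand), chr5:91383298-91383327 (minus strand) and chr19:39406837-39406866 (plus strand), in the order shown.

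Of the 67 lower genes 57 had a RefSeq window, and 31 of these (54.4%) began with a tract, against 22.8% of all genes tested with a window and 22.1% of all protein-coding windows. Among the 8 lower snoRNA hosts it was 7, against 99 of 377 snoRNA hosts with a window (26.3%), and among 62 ribosomal protein genes 50 (80.6%). Read the other way, of 2436 tested genes with a tract 31 fell, and every vemurafenib library was below every vehicle library in 19.7%. Of 8237 genes without one, 26 fell, and 10.4% were separated downwards. The median log2 changes were -0.04 with a tract and 0.03 without. TPT1 changed by -0.74 ± 0.21 (limma adjusted p = 0.0932). Windows were found for 31 of the 42 higher genes, and 4 of these (12.9%) began with a tract. Windows covered 77.6% of all genes tested, so the shares speak only for genes with a window. AP-1 (TGANTCA), ETS (CCGGAAG), AHR (GCGTG) and E-box (CACGTG) letters, searched on both strands of the whole window, were in 5.26%, 21.1%, 43.9% and 12.3% of the lower genes' windows, against 4.78%, 18.9%, 50.7% and 10.2% of the windows of all genes tested.

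**Figure D4:**
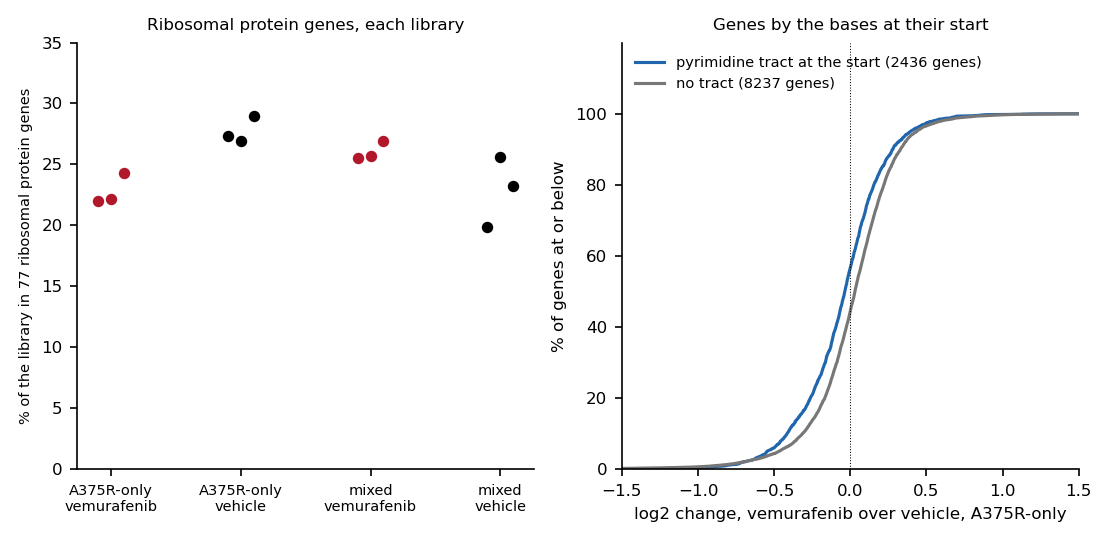
Left, the percentage of each library's summed value in 77 ribosomal protein genes, by group. It is 22.0 to 24.3% in A375R-only vemurafenib libraries and 26.9 to 29.0% in A375R-only vehicle libraries, and the mixed groups overlap. Right, the cumulative percentage of genes at or below a log2 change in A375R-only tumours, for genes with (blue) and without (grey) a pyrimidine tract at the RefSeq start, the blue curve lying to the left below 0.

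The lists of growth factors, cytokines, matrix genes and receptor tyrosine kinases each had 1 member past the threshold, beside 0.305% of all genes higher and 0.487% lower. FST, follistatin, a secreted protein that binds and blocks activin, had 3316, 3103 and 3201 in vemurafenib tumours, against 1415, 1815 and 1339 in vehicle tumours. The vemurafenib libraries lay close together and far above the vehicle libraries, a change of 1.09 ± 0.14 with the smallest adjusted p of all genes (limma, 0.00757). It was the 1 of 32 growth factor and binding protein genes, and of 21 TGF-beta, BMP and SMAD genes, to pass, and it rose in A375 tumours too (1.85 ± 0.42). BMP4 had 326, 313 and 384 in vemurafenib tumours, against 197, 129 and 179.9 in vehicle tumours and BDNF 308, 386 and 444 in vemurafenib tumours, against 243, 262 and 214 in vehicle tumours. Both separated the groups without passing, with changes of 1.03 ± 0.25 and 0.65 ± 0.15 (limma adjusted p = 0.0555 and 0.0526). Of 22 cytokine and chemokine genes 16 had changes below 0 (median -0.33) and 1 passed: TSLP, a cytokine of epithelial and stromal alarm, with 22.4, 24.3 and 29.9 in vemurafenib tumours, against 50.3, 50.1 and 52.4 in vehicle tumours, a change of -0.98 ± 0.22 (limma adjusted p = 0.0483). IL6 had 71.0, 45.8 and 75.3 in vemurafenib tumours, against 81.7, 115 and 91.8 in vehicle tumours, a change of -0.60 ± 0.22 that did not pass (limma adjusted p = 0.152). IGFBP3 had 4463, 6518 and 5353 in vemurafenib tumours, against 6858, 6245 and 5455 in vehicle tumours, with overlapping groups. MMP1, the interstitial collagenase, had 135, 403 and 270.2 in vemurafenib tumours, against 789, 539 and 509 in vehicle tumours and was lower in all 3 vemurafenib libraries without passing (-1.29 ± 0.32, limma adjusted p = 0.0648).

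COL1A1, a chain of type I collagen, had 2413, 2957 and 2103 in vemurafenib tumours, against 1083, 1324 and 1099 in vehicle tumours. The groups did not overlap, and its change was 1.08 ± 0.17 (limma adjusted p = 0.0191). COL18A1, a basement membrane collagen, rose by 0.74 ± 0.17 (limma adjusted p = 0.0483), and COL5A2 had 479, 868 and 799 in vemurafenib tumours, against 414, 443 and 366 in vehicle tumours without passing (0.77 ± 0.19, limma adjusted p = 0.0612). Of 30 matrix genes tested 25 had changes above 0, with a median of 0.31, and 1, COL1A1, passed. PDGFRB, the PDGF receptor of mesenchymal cells, had 176, 281 and 292 in vemurafenib tumours, against 122, 112 and 113 in vehicle tumours, a change of 1.07 ± 0.19 (limma adjusted p = 0.0273), the 1 of 16 receptor tyrosine kinase genes tested to pass. EPHB1, an ephrin receptor kinase outside that list, had 81.8, 118 and 64.6 in vemurafenib tumours, against 39.2, 30.4 and 28.6 in vehicle tumours, a change of 1.37 ± 0.27 (limma adjusted p = 0.036). AXL, a receptor kinase linked to drug tolerance, had 13052, 13676 and 13025 in vemurafenib tumours, against 10805, 10554 and 9874 in vehicle tumours. The groups were separated, yet the change of 0.35 ± 0.11 did not pass (limma adjusted p = 0.117). EGFR changed by 0.30 ± 0.16 (limma adjusted p = 0.351). ACTA2, smooth muscle actin, fell, with 483, 414 and 434 in vemurafenib tumours, against 1009, 660.2 and 827 in vehicle tumours, a change of -0.89 ± 0.20 (limma adjusted p = 0.0495). Other actins share much of its sequence, so its value is uncertain.

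COL1A1, PDGFRB and ACTA2 are also markers of fibroblasts and pericytes. Of that list 11 of 12 genes were tested, 2 rose and 1 fell, and its summed level was 3154 to 3944 in vemurafenib tumours, against 2318 to 2439 in vehicle tumours, mostly COL1A1 and ACTA2. DCN, a defining fibroblast gene, had 40.9, 52.3 and 50.2 in vemurafenib tumours, against 21.3, 43.5 and 51.2 in vehicle tumours. The summed leukocyte markers ran from 3881 to 6055 in vemurafenib tumours, against 7644 to 9837 in vehicle tumours, nearly all from CD68, a lysosomal protein that tumour cells also make. CD68 had 3744, 5645 and 5915 in vemurafenib tumours, against 9693, 7511 and 9649 in vehicle tumours (-0.83 ± 0.20, limma adjusted p = 0.0589), and 3 of the 18 listed leukocyte markers were at 0 in all 6 libraries. The endothelial sum was 2177 to 3384 in vemurafenib tumours, against 2169 to 2409 in vehicle tumours, mostly from ENG. Blood, skin and muscle markers summed to 2876 to 3492 in vemurafenib tumours, against 2781 to 3570 in vehicle tumours, mostly KRT10. The 6 fat markers summed to 67.9 to 106.4 in vemurafenib tumours, against 52.6 to 133.5 in vehicle tumours. By the titles the tag is in the A375R cells, so the pull-down should leave host RNA behind, and how much of it came through was not measured. The part of host cells in the 3 gene changes was not tested. In bulk samples such as these, more or fewer cells of a type and more or less RNA per cell cannot be told apart.

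Further genes with large rises belong to none of the lists. TMEM98, a membrane protein, had 123, 127 and 43.0 in vemurafenib tumours, against 17.9, 22.2 and 16.7 in vehicle tumours, a change of 2.16 ± 0.42 (limma adjusted p = 0.0282), with vemurafenib replicate 3 nearest to the vehicle group. LSP1, an actin-binding protein of leukocytes and some tumours, had 466, 335 and 423 in vemurafenib tumours, against 206, 179 and 173 in vehicle tumours, a change of 1.12 ± 0.21 (limma adjusted p = 0.0282). CBS, which makes cystathionine from homocysteine, had 253, 126 and 152 in vemurafenib tumours, against 62.7, 103 and 70.3 in vehicle tumours, a change of 1.13 ± 0.25 (limma adjusted p = 0.0483). PDE4D, a cyclic AMP phosphodiesterase, rose by 0.64 ± 0.12 (limma adjusted p = 0.0282), PRSS23, a secreted protease, by 0.69 ± 0.13 (limma adjusted p = 0.0282), and DHODH, of pyrimidine synthesis, by 0.51 ± 0.11 (limma adjusted p = 0.0377). None of the 28 interferon-stimulated, 18 antigen presentation, 16 BCL2 family, 31 cholesterol and fatty acid, 30 respiratory chain, 27 lysosome and autophagy, 13 pigment cell, 18 dedifferentiation, 25 ribosome biogenesis, 22 matrix protease, 20 integrin and cadherin, 19 YAP-TEAD, 17 AHR and NRF2, 12 drug transporter, 11 Notch or 11 histone genes tested passed in limma or edgeR. In DESeq2 0 to 3 of each list passed, and in limma 0 to 9 of each had an unadjusted p under 0.05 in one direction or the other, 10 in the lysosome list. Their medians ran from -0.16 in the pigment cell list to 0.25 in the antigen presentation list. CYP1A1, the standard target of the aryl hydrocarbon receptor, had 1.12 to 2.46 reads in all 6 libraries and was not tested.

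In mixed tumours, where A375R cells grew among drug-sensitive cells, 171 genes were higher with vemurafenib (1.24%) and 307 lower (2.23%). Of the 42 genes higher in A375R-only tumours 30 had a change above 0 in mixed tumours, and of the 67 lower ones 23 had a change below 0. Of the 109, 11 were called in both, 9 of them in the same direction. A test of the difference between the 2 responses (an interaction term in the same fit) was past the threshold for 397 genes (2.89%), among them 9 of the 42 and 37 of the 67. Of the 397 differences 66.2% were upwards in mixed tumours, against 4.75% of 3687 under total-count scaling, which also took the share of higher calls within mixed tumours to 4.38% (35.8% as reported). As these genes were picked by the A375R-only libraries, which the test also uses, that count is a description.

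FST rose in both tumours, with 5156, 4722 and 4492 in mixed vemurafenib tumours, against 1534, 2272 and 1630.0 in mixed vehicle tumours, a change of 1.42 ± 0.14, and the difference between tumours was 0.34 ± 0.20 (limma adjusted p = 0.366). COL1A1 and LSP1 also rose in mixed tumours (0.88 ± 0.17 and 0.99 ± 0.21), as did PRSS23 (0.79 ± 0.13), and MYLIP, KBTBD8 and RGS2 fell in both (-0.88 ± 0.22, -0.94 ± 0.18 and -0.72 ± 0.16 in mixed tumours). For ARRDC3 the values were 819, 1501 and 1893 in mixed vemurafenib tumours, against 1363, 956 and 1169 in mixed vehicle tumours. That response of 0.20 ± 0.24 differed from the A375R-only one by 1.89 ± 0.34 (limma adjusted p = 0.0201). C10orf10 and EEF1A2 differed in the same sense (3.07 ± 0.55 and 1.75 ± 0.38), with 0.99 ± 0.39 and 0.41 ± 0.27 in mixed tumours. GAS5 had 44291, 51433 and 78303 in mixed vemurafenib tumours, against 29277, 48192 and 44149.7 in mixed vehicle tumours, and its responses differed by 1.66 ± 0.31 (limma adjusted p = 0.0201). TSLP and CLEC2B, a lectin-type ligand of immune receptors, were called in opposite directions, rising in mixed tumours by 0.85 ± 0.22 and 0.53 ± 0.10. The ribosomal protein genes had a median of 0.38 in mixed tumours, and for 23 of 76 the difference between the responses passed, each time higher in mixed tumours. Under quantile normalisation that median was 0.03 and 1 of the 76 differences passed. The replication list had a median of 0.08 there (-0.12 under total-count scaling), with no member past the threshold, and the difference between the responses passed for 1 of 29, GINS4.

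**Figure D5:**
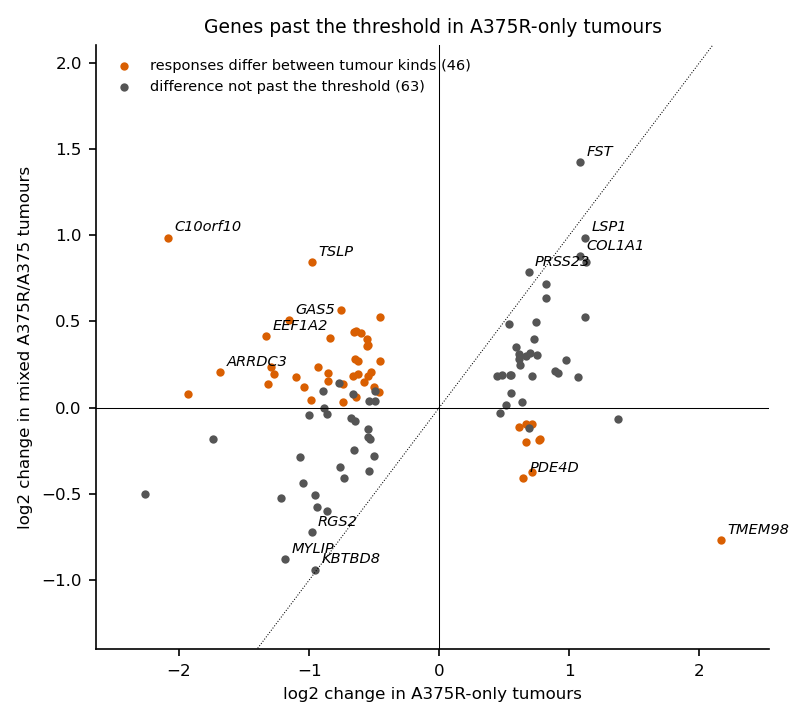
Each point is 1 of the 109 genes past the threshold in A375R-only tumours, at its log2 change there (x axis) and in mixed A375R/A375 tumours (y axis). Orange marks the 46 genes whose responses differ at adjusted p under 0.05, and the dotted line marks equal responses. The lower genes gather near or above 0 on the y axis, and FST, LSP1, COL1A1 and PRSS23 lie near the line.

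SOX10 did not pass in A375R-only tumours (0.60 ± 0.52, limma adjusted p = 0.583) and fell in mixed tumours by a log2 change of -2.75 ± 0.52, a difference of -3.35 ± 0.74 (limma adjusted p = 0.0282). SORL1, a sorting receptor, had 10.8, 129 and 19.1 in vemurafenib tumours, against 8.95, 1.64 and 2.38 in vehicle tumours. Vemurafenib replicate 2 alone set its change of 2.81 ± 0.82 apart, which did not pass (limma adjusted p = 0.0946), while it fell in mixed tumours by -4.74 ± 0.82. SYTL5, a vesicle adaptor, had 410.0, 106 and 114 in vemurafenib tumours, against 181, 106 and 151 in vehicle tumours, with overlapping groups, and fell in mixed tumours by -2.93 ± 0.39. NUPR1, a stress-induced chromatin protein, had 51.0, 38.3 and 65.8 in vemurafenib tumours, against 35.8, 50.1 and 64.3 in vehicle tumours, with overlapping groups, and rose in mixed tumours by 1.77 ± 0.32. CCL26, a chemokine of eosinophils, had 67.9, 44.8 and 71.7 in vemurafenib tumours, against 88.4, 264 and 123 in vehicle tumours, a change of -1.22 ± 0.35 that did not pass (limma adjusted p = 0.093), and its responses differed by 1.93 ± 0.50. SLC24A3 and SERPINA3 were at 0 to 1.87 and 4.11 to 10.8 reads in all 6 A375R-only libraries and fell in mixed tumours by -5.60 ± 0.48 and -2.70 ± 0.43. They passed the filter on low values through the mixed libraries, so their differences between the responses say nothing of A375R-only tumours.

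In A375 tumours, of the 41 genes higher in A375R-only tumours and tested there, 10 were higher and 25 lower, and of the 62 lower in A375R-only tumours and tested there 15 were lower and 33 higher, beside a background of 34.2% higher and 34% lower. EPHB1, JDP2 and RHOB changed by 2.43 ± 0.29, 1.36 ± 0.20 and 2.01 ± 0.09 there, where LSP1, CBS and PDGFRB changed by -3.73 ± 0.15, -2.43 ± 0.26 and -1.44 ± 0.10.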

How the data were processed

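RNA of A375R-only, mixed and A375 tumours was sequenced from libraries of an Illumina TruSeq kit that does not mark strand, so overlapping and antisense genes cannot be told apart. Per the labels' protocols this was its version 2. Groups were taken from the sample titles. The deposited values are a signal per gene, read counts that the authors divided by a size factor per library, as the values themselves show. Software named in the submitters' processing notes was STAR 2.3.0e, HTSeq 0.5.4 and DESeq 1.18.0, with the builds hg19 and mm9. How each was used, and what was done with mouse reads, the sources used here do not give. Every value was a whole multiple of 1 step per library (100% whole within 0.1, largest deviation 0.00039), which gave the reads back. The 2 rows that name no gene, with a summed value of 0, were left out.

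The A375R table was tested with limma 3.58.1 in R 4.3.3, on log2(value + 1) with a trend of variance on mean, for genes with a mean of at least 10, all 12 libraries in 1 fit, two-sided, with Benjamini-Hochberg adjustment over all genes and a threshold of 0.05. The 8 A375 libraries were fitted in the same way within their own table. This log2 scale understates the change of low genes. Alternatives were pseudocounts of 0.5 and 5, no filter, a filter at 50, quantile and TMM normalisation, total-count scaling (chosen after seeing the data), the replicate number as a block, edgeR 4.0.16 and DESeq2 1.42.0 on recovered reads (98 and 736 genes called), the 6 libraries alone, and leaving out each library. Within every group the libraries differed beyond counting error, with a chi-square per degree of freedom of at least 4.83. The labels do not say that samples are separate animals, so a p-value here speaks for the spread of these samples, which may be technical. Same-number libraries of the A375R-only groups had correlations of deviations of 0.083, 6.7e-05 and 0.071, so the numbers were not taken as pairs.

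The gene lists were chosen with earlier results of these data known. The naming rule took the 10 largest changes each way with a mean of at least 50 and no overlap between groups, the 2 members of each list with the smallest p each way, set genes of MAPK signalling and melanoma, and 5 interaction genes each way. Fewer genes are named than it takes, and named genes outside it were chosen after their values were seen. A withheld item is not reported here. Sequences are from RefSeq (GRCh38.p14). Promoter windows were found for 10673 of 13755 tested genes, 1095 of them through an older symbol.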

Additional observations from a re-analysis of the deposited data

Results flagged for a closer look

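Each gene below was marked because its response to vemurafenib differed between mixed and A375R-only tumours by the interaction term of the limma fit at an adjusted p under 0.05. Values are the log2 response of mixed tumours minus that of A375R-only tumours, with the SE (n = 3 libraries a group). The genes were partly chosen by their A375R-only values, which the test uses, and 397 of all 13755 genes (2.89%) passed it. They are given by direction alone. By the lists, the difference passed for 1 of 29 replication genes and 23 of 76 ribosomal protein genes.

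Upwards in mixed tumours differed ALDOC by 1.16 ± 0.27, ARRDC3 by 1.89 ± 0.34, BHLHE40 by 1.53 ± 0.32, C10orf10 by 3.07 ± 0.55, C6orf48 by 1.32 ± 0.23, CCL26 by 1.93 ± 0.50 and CD68 by 1.34 ± 0.29. So did CLEC2B by 0.98 ± 0.14, DPH5 by 0.73 ± 0.15, DUSP5 by 0.85 ± 0.21, EEF1A2 by 1.75 ± 0.38, EIF4A2 by 1.17 ± 0.30, FAM180A by 1.47 ± 0.36 and FTL by 1.08 ± 0.20. In the same direction were GAB2 by 0.82 ± 0.20, GAS5 by 1.66 ± 0.31, MICA by 0.88 ± 0.18, MIR100HG by 0.70 ± 0.15, NRN1 by 1.45 ± 0.38, NUPR1 by 1.72 ± 0.45 and PPP1R15A by 1.01 ± 0.19. So did RIPK2 by 0.62 ± 0.16, RPSA by 1.10 ± 0.22, SAT1 by 0.77 ± 0.17, TAF1D by 1.24 ± 0.25, TPT1 by 1.23 ± 0.30, TSLP by 1.82 ± 0.31 and ZFP36 by 1.03 ± 0.23. Downwards in mixed tumours differed CCNE2 by -0.78 ± 0.20, CENPM by -0.76 ± 0.19, E2F8 by -0.96 ± 0.24, GINS4 by -0.87 ± 0.21, PDE4D by -1.05 ± 0.17, SORL1 by -7.56 ± 1.16 and SOX10 by -3.35 ± 0.74. So did SPC25 by -0.81 ± 0.20, SYTL5 by -3.18 ± 0.56, TMEM98 by -2.93 ± 0.59 and WDR62 by -0.96 ± 0.22. SERPINA3 by -3.14 ± 0.61 and SLC24A3 by -6.19 ± 0.68 also lay downwards, but they were at or near the floor in A375R-only libraries (4.11 to 10.8 and 0 to 1.87 reads) and were tested only through the mixed libraries, so these values say nothing of the A375R-only response. Adjusted p ran from 0.00104 to 0.0497. What sets the responses apart was not tested.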

How the results depend on the processing

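No gene called in A375R-only tumours turned its sign under any alternative run, and the number of calls moved widely around 109. It was 14 with no filter on low values, 1227 under total-count scaling, 298 with the replicate block, 736 with DESeq2 and 530 in the fit of the 2 groups alone, and it ran from 1 to 326 with 1 library left out. The replicate numbers share only a number, so the replicate block is no paired analysis. With it the mixed tumours gave 494 calls, the difference between responses 530 and A375 tumours 9253. Mixed tumours gave 478 calls as reported, 1234 under total-count scaling, 945 with DESeq2, 229 in the fit of the 2 groups alone and 105 to 562 with 1 library left out. The difference between responses gave 397, 185 with no filter, 3687 under total-count scaling, 887 with DESeq2 and 10 to 539 with 1 library left out. A375 tumours gave 9603 calls and 9051 to 9387 with 1 library left out. Total-count scaling moved the median of all genes to 0.19 in A375R-only tumours (0.01 as reported), and the share of higher calls to 92.7%, against 38.5% as reported. Of the 65 called genes whose A375R-only change or adjusted p is printed, every one lost its call in at least 1 alternative. FST lost it in 1 of 17, without vehicle replicate 3, with adjusted p from 4.89e-09 to 0.0609 over its alternatives, and ARRDC3 and MCM6 in 3 each. Of the 35 so printed that did not pass, 22 passed in at least 1 alternative. MYC turned to 0.13 under total-count scaling and ran from -0.22 to 0.13 with 1 library left out, and SOX10 ran from -0.034 (without vemurafenib replicate 1) to 1.12. The causes of these moves were not tested. Depth was lowest in vemurafenib replicate 3 among the A375R-only libraries, at 26884205 reads, which limits what low genes can show.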

Other observations

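Several further genes past the threshold in A375R-only tumours fall outside the groups described, and were picked after their values were seen. MICA, a stress ligand that natural killer cells recognise, had 628, 703 and 874 in vemurafenib tumours, against 1253, 1149 and 1257 in vehicle tumours, a log2 change of -0.74 ± 0.13 (SE, n = 3 each, limma adjusted p = 0.0237). RIPK2, a kinase of innate immune signalling, fell by a log2 change of -0.50 ± 0.11 (limma adjusted p = 0.0483). PTPRR, a tyrosine phosphatase that acts on ERK and p38, had 221, 150.4 and 196 in vemurafenib tumours, against 338, 309 and 406 in vehicle tumours, a change of -0.90 ± 0.19 (limma adjusted p = 0.0384), and GAB2, an adaptor that links receptors to PI3K and SHP2, had 544, 577 and 666 in vemurafenib tumours, against 844, 871 and 1038 in vehicle tumours, a change of -0.62 ± 0.14 (limma adjusted p = 0.0483). MIR100HG, a noncoding host of microRNA genes, had 2653, 2704 and 3209 in vemurafenib tumours, against 4440.4, 4105 and 4784 in vehicle tumours, a change of -0.64 ± 0.10 (limma adjusted p = 0.0196). In all 5 the vemurafenib libraries lay below the vehicle libraries.

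Among higher genes GPC1, a heparan sulfate proteoglycan that binds growth factors, had 733, 892 and 733 in vemurafenib tumours, against 565, 585 and 477 in vehicle tumours, a change of 0.53 ± 0.12 (limma adjusted p = 0.0495), and it rose in mixed tumours as well (0.48 ± 0.12, limma adjusted p = 0.0358). TNS3, a focal adhesion protein, had 575, 783 and 642 in vemurafenib tumours, against 417, 390.0 and 442 in vehicle tumours, a change of 0.67 ± 0.14 (limma adjusted p = 0.0471). LPCAT1, of phospholipid remodelling, rose by 0.59 ± 0.12 (limma adjusted p = 0.0366). In each the vemurafenib libraries lay above the vehicle libraries.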
